A study of Mus musculus with 4 samples.

Results

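Absorptive progenitors of the small intestine were described here as cells with several early absorptive genes, from a list that includes gasdermin C genes. Their stem cell, mitotic and mature enterocyte genes were limited by the rule below. A cell barcode of the 10x libraries counted as a progenitor if it had at least 1000 unique molecular identifiers (UMIs, 1 per captured mRNA), at least 500 genes and under 30% mitochondrial UMIs, and met 4 further conditions. At least 4 of the 8 genes Gsdmc4, Gsdmc2, Mgat4c, Ms4a18, Cyp4f40, Akr1c19, Bcl2l15 and Rbp7 had a UMI, and Lgr5 had under 2 UMIs. Fewer than 5 of the 7 mitotic genes Top2a, Mki67, Cdk1, Ube2c, Aurkb, Ccnb1 and Birc5 were detected, and the 6 enterocyte genes Fabp1, Fabp2, Rbp2, Leap2, Apoc3 and Spink1 summed to under 200 per 10000 UMIs. No single marker gene was required, and up to 4 of the 7 mitotic genes could be detected. This rule found 5417 progenitors among 32872 barcodes that passed the 3 quality limits, of 44576 barcodes in all.

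The study sequenced single epithelial cells of the small intestine from mice aged 25 weeks, with a sort by flow cytometry on CD45, CD31, TER-119, CD326 and DAPI before capture. The mutants carry the point mutation G5081A in TrnA, which encodes the tRNA for alanine in mitochondrial DNA. Per the labels the mutation load, the share of mitochondrial DNA copies with the change, was 77% in mutant 1 and 81% in mutant 2, and they are compared with wild type 1 and wild type 2. The series title speaks of acute colitis, but the sample labels name no colitis treatment. Mutant 1 and wild type 1 form set A, and mutant 2 and wild type 2, both titled male, form set B; the Cell Ranger version in the file headers also separates these pairs. The labels do not say whether libraries came from separate animals, so with n = 2 per genotype the p-values speak only of the spread among these libraries, which may be technical.

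Absorptive progenitors arise from daughters of Lgr5 stem cells that receive Notch signal, which holds back the secretory fate. They divide in the crypt and leave it as young enterocytes, which mature while they move up the villus. Gasdermin C proteins belong to a family whose cleaved amino-terminal part forms membrane pores, and in the mouse intestine their genes respond to type 2 cytokines. When mitochondrial translation or respiration is impaired, cells commonly start the integrated stress response, in which the factor Atf4 and its partners switch on genes of amino acid synthesis, including the serine pathway.

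Progenitors made up 2105 of 11503 kept barcodes in mutant 1 and 1421 of 8647 in mutant 2, against 783 of 4533 in wild type 1 and 1108 of 8189 in wild type 2. Their median depth was 11224 UMIs in mutant 1 and 14974 in mutant 2, against 29825 in wild type 1 and 14997 in wild type 2, so wild type 1 stood apart as the deepest library. Summed over progenitors, the UMIs came to 26874969 and 24630968 in the mutants, against 23218869 and 19531328 in the wild types, and levels below are CPM, UMIs divided by these sums and scaled to 1000000. The 4 libraries hold 99772712 to 127796409 UMIs each. Between 26 and 60 barcodes were shared by a pair of libraries, and 0 to 3 of them were progenitors in both.

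The members were chosen by measured UMI counts of the 22 genes named in the rule, so the levels of those genes in progenitors are a description and support nothing further. Gsdmc4, on the minus strand at chr15:63891264-63912297 (mm10), lies beside Gsdmc3 (chr15:63857724-63878558), Gsdmc2 (chr15:63824346-63845177) and Gsdmc (chr15:63775968-63808759). In progenitors Gsdmc4 had 209 CPM in mutant 1 and 103 in mutant 2, against 311 in wild type 1 and 108 in wild type 2. It was detected in 75.6% and 61.7% of progenitors in mutants, against 88.3% and 58.5% in wild types. Both libraries of set A were higher than both of set B, and the genotypes overlapped. Gsdmc2 was likewise higher in set A, with 85.8 and 42.6 CPM in mutants, against 124 and 39.8 in wild types. Gsdmc3, which the rule does not use, had 29.7 and 14.3 CPM in mutants, against 42.8 and 15.5 in wild types. Gsdmc itself gave 1 UMI in the progenitors of mutant 1 and none in the other libraries. Reads of the gasdermin C copies can be split uncertainly: of 90-base windows in the last 600 bases of each transcript, 17.8% in Gsdmc2 and 15.1% in Gsdmc3 occur in another copy, but 0% in Gsdmc4.

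The other 6 marker genes of the rule were each detected in all 4 libraries. Bcl2l15, a Bcl2 family member, had 410 and 411 CPM in mutants, against 465 and 410 in wild types. Rbp7, a retinoid-binding protein, had 123 and 122 CPM in mutants, against 107 and 153 in wild types. Both overlap between genotypes. Mgat4c, of the N-acetylglucosaminyltransferase IV family, was lowest in mutant 1, with 172 and 328 CPM in mutants, against 297 and 368 in wild types. The cytochrome P450 gene Cyp4f40 lay between 131 and 170 CPM, the aldo-keto reductase Akr1c19 between 119 and 157, and the membrane protein gene Ms4a18 between 179 and 231 over the 4 libraries.

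**Figure D1:**
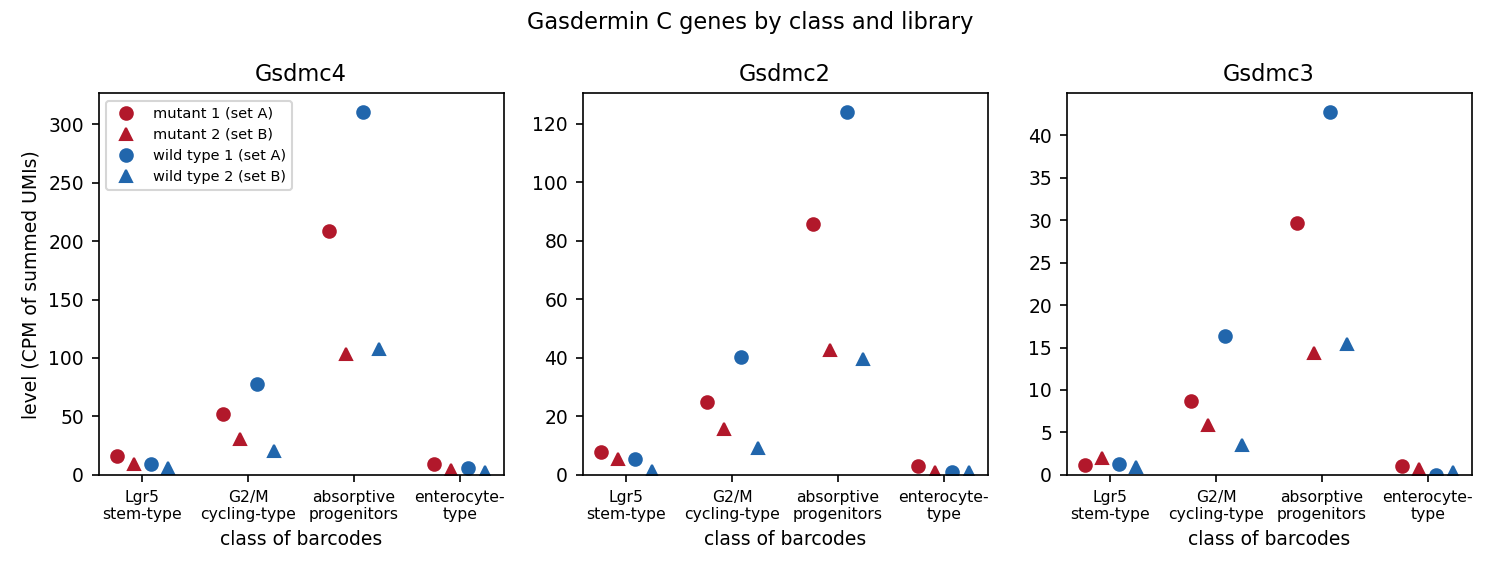
Level of Gsdmc4, Gsdmc2 and Gsdmc3 in CPM of summed UMIs (y axes, linear and on separate scales) in 4 classes of barcodes (x axes); each point is 1 library, red for mutants and blue for wild types, circles for set A and triangles for set B. Progenitors have the highest level of each gene in every library, for example 209 and 103 CPM of Gsdmc4 in mutants against 311 and 108 in wild types.

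Along the absorptive path, gasdermin C genes were low in stem-type barcodes, partly present in mitotic ones, highest in progenitors and low again in enterocytes. Stem-type barcodes, chosen for Lgr5, had 16.1 and 9.69 CPM of Gsdmc4 in mutants, against 9.45 and 5.59 in wild types. Mitotic barcodes had 52.4 and 30.5 CPM in mutants, against 77.3 and 20.8 in wild types. Enterocyte-type barcodes were back at 9.29 and 4.32 CPM in mutants, against 5.62 and 2.79 in wild types. With every barcode thinned to 3000 UMIs, 41.2% and 25.3% of progenitors had a Gsdmc4 UMI in mutants, against 50.1% and 24.8% in wild types. In tuft-type barcodes, set beside them as a measure of free RNA, the shares were 5.6% and 2.7% in mutants, against 5.1% and 1.7% in wild types. These classes were cut from the same data, so the order is a description with no test. Stem-type barcodes also hold Paneth cell RNA, as Paneth markers summed to 134340 and 194970 CPM in mutants, against 132720 and 137270 in wild types. The median stem-type barcode held only 0.391% and 0.655% Paneth marker UMIs in mutants, against 0.159% and 0.435% in wild types. A part of the class thus carries most of that RNA.

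The label was checked against markers of neighbouring cell types. Stem markers summed to 496 and 287 CPM in the progenitors of mutants, against 373 and 298 in those of wild types, while stem-type barcodes had 6366 to 10407. Olfm4, a crypt base gene outside the rule, had 328 and 167 CPM in mutants, against 232 and 160 in wild types, and 2135 to 3058 CPM in all other barcodes of the 4 libraries. Enterocyte markers summed to 11922 and 23633 CPM in mutants, against 21361 and 19573 in wild types, which lies between the 1419 to 3025 of stem-type and the 90746 to 108700 of enterocyte-type barcodes. The 7 mitotic genes of the rule summed to 200 and 142 CPM in mutants, against 98.5 and 143 in wild types. Stem-type barcodes had 151 to 251. The rule limits Lgr5, the mitotic genes and the enterocyte genes, and the classes were cut on the same genes, so these sums are a description.

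Genes outside the rule that led the progenitors over other barcodes are also a description, since the cells were cut from the same counts. Car4, a membrane carbonic anhydrase, had 274 and 249 CPM in progenitors of mutants, against 368 and 267 in those of wild types, and 35.9 to 44.9 in all other barcodes. Fabp6, the ileal bile acid binding protein, had 2957 and 5024 CPM in mutants, against 4053 and 6785 in wild types. Against stem-type barcodes, the cell cycle inhibitor Cdkn2b stood at 140 and 137 CPM in mutants, against 167 and 129 in wild types, where stem-type barcodes had 5.12 to 12.4. Reg3b, an antimicrobial lectin, Il18, a cytokine, and Slc51b, a subunit of the basolateral bile acid exporter, were further leading genes. On the other side, the ion cotransporter gene Slc12a2 had 88.5 and 66.3 CPM in mutants, against 67.9 and 76.8 in wild types, where stem-type barcodes had 920 to 1300. Compared with enterocyte-type barcodes, progenitors led in Fgfbp1 and in the G1 cyclin Ccnd1 and were lowest in the apolipoproteins Apoc2 and Apoa4.

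Of the 8 rule markers and Gsdmc3, 7 have a promoter in the RefSeq table (build GRCm38.p6, from 250 bases before to 50 after the start). Windows of Gsdmc3, the only gasdermin C gene of the table, and of Bcl2l15 and Ms4a18 are shown because they mark the class. They read 5′ to 3′ on the gene's strand, with matches to the GATA factor motif AGATAA, on either strand, in capitals.
Gsdmc3 (chr15:63878509-63878808, minus strand): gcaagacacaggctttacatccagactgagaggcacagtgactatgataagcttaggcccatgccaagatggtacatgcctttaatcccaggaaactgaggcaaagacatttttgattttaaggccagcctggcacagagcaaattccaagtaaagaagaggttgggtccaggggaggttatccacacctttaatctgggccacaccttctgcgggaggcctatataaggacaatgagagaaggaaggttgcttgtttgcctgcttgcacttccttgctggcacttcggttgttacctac
Bcl2l15 (chr3:103832446-103832745, plus strand): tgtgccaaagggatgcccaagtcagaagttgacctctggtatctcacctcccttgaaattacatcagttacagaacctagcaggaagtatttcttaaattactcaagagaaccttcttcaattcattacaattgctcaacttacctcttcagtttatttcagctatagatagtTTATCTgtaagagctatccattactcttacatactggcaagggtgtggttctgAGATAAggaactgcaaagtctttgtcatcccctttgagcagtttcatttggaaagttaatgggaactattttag
Ms4a18 (chr19:11017914-11018213, minus strand): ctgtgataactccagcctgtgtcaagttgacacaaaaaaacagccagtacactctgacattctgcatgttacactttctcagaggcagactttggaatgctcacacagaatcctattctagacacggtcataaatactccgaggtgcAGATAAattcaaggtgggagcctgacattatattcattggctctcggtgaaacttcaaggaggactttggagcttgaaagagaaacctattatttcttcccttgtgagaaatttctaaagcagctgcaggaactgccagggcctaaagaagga
AGATAA occurs in 5 of the 7 genes (Akr1c19, Bcl2l15, Cyp4f40, Mgat4c and Ms4a18), counting a gene that has it in any of its windows, and in 12.7% of the 27025 genes of the table counted so. By window it is in 8 of their 11 promoters, of which Mgat4c has several, and in 11.2% of the 32851 promoters of the table. The windows of Cyp4f40 overlap and hold the same match, which is counted in each. In Bcl2l15 the matches begin 77 and 24 bases before the start and do not overlap, and in Ms4a18 the match begins 103 bases before it. The letters CAAAGTCCA (an HNF4 motif, 0.555% of all genes) and TTTATGG (a CDX motif, 3.21%), searched on both strands, are in 0 of the 7 genes. A match is a run of letters, not a measured binding site.

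Progenitors varied among themselves along the enterocyte sum used by the rule. Those under 10 per 10000 UMIs numbered 1247 and 435 in mutants, against 468 and 361 in wild types, and those from 50 to under 200 numbered 104 and 289 in mutants, against 34 and 240 in wild types. Gsdmc4 had 225 and 122 CPM in mutants, against 328 and 122 in wild types, in the lowest range. It had 208 and 111 CPM in mutants, against 313 and 135 in wild types, in the middle range of 10 to under 50. In the highest range it was at 54.8 and 57.4 CPM in mutants, against 95.5 and 34.1 in wild types, the lowest of the 3 ranges in every library. Gsdmc3 was lowest there too, with 8.92 and 2.84 CPM in mutants, against 2.73 and 1.14 in wild types, in the highest range. Krt20, a keratin of differentiated villus cells, went the other way: 199 and 225 CPM in mutants, against 283 and 256 in wild types, in the lowest range, and 636 and 755 CPM in mutants, against 978 and 635 in wild types, in the highest.

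Progenitors also differed in their regional genes. Gata4, a transcription factor of the proximal intestine, was detected in 1166 and 727 progenitors of mutants, against 543 and 672 of wild types. Where it was not detected, Fabp6 had 5194 and 9363 CPM in mutants, against 10199 and 12265 in wild types. Where it was detected, Fabp6 had 1440 and 1642 CPM in mutants, against 1730 and 3750 in wild types. The gap was present in each library. Mgat4c was likewise higher without Gata4, at 241 and 460 CPM in mutants, against 453 and 558 in wild types. Gsdmc4 showed no common order, with 232 and 123 CPM without Gata4 in mutants, against 278 and 125 in wild types, beside 193 and 87.3 with Gata4 in mutants, against 323 and 98.5 in wild types. Detection of Gata4 depends on the depth of a barcode.

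At the threshold of the rule, barcodes with exactly 4 markers numbered 436 and 310 in mutants, against 87 and 217 in wild types, and those with 3, just outside, numbered 453 and 337 in mutants, against 126 and 271 in wild types. Gsdmc2 and Gsdmc4 together had 128 and 31.6 CPM in mutants, against 74.6 and 21.5 in wild types, at 4 markers. At 3 markers they had 82.2 and 17.3 CPM in mutants, against 39.0 and 15.1 in wild types. Olfm4 had 761 and 258 CPM at 4 markers in mutants, against 1243 and 370 in wild types, and at 3 markers 1242 and 576 in mutants, against 1344 and 787 in wild types. All 8 markers were detected in 13.4% and 14.6% of the progenitors of mutants, against 43.4% and 15.2% of those of wild types. Wild type 1 has both the highest of these shares and the deepest barcodes.

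The first comparison across genotypes was the abundance of progenitors among kept barcodes. They made up 18.3% (exact Clopper-Pearson 95% interval 17.6% to 19.0%) in mutant 1 and 16.4% (15.7% to 17.2%) in mutant 2, against 17.3% (16.2% to 18.4%) in wild type 1 and 13.5% (12.8% to 14.3%) in wild type 2. Only counting error enters these intervals. Mutants averaged 17.4% (SD 1.32, n = 2) and wild types 15.4% (SD 2.65, n = 2), a difference of 1.96 percentage points (1.03 within set A, 2.90 within set B). The exact permutation test, two-sided, gave p = 0.667, and 2 against 2 libraries cannot go below 0.333. With each barcode thinned to 3000 UMIs, which left out 12.1% to 19.1% of barcodes, the shares were 8.99% and 7.43% in mutants, against 9.38% and 7.07% in wild types. The difference was then -0.0171 points (exact permutation p = 1), and at 5000 UMIs it was 0.349 points. With all UMIs the difference was 0.0932 points without wild type 2 and 3.84 points without wild type 1. With at least 3 markers required, shares were 22.2% and 20.3% in mutants, against 20.1% and 16.8% in wild types, and under 15% mitochondrial UMIs they were 19.9% and 19.3% in mutants, against 18.3% and 16.6% in wild types. In both of these settings the mutants lay above the wild types, by 2.84 and 2.15 points, and the exact permutation p of 0.333 is the smallest that 2 against 2 libraries can give. No difference in the share of progenitors beyond the spread between libraries was detected.

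**Figure D2:**
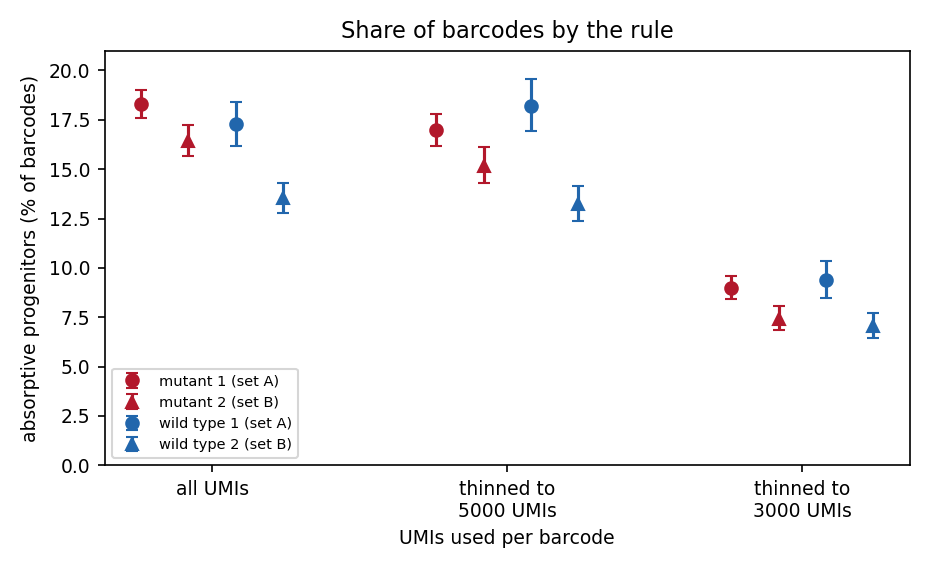
Progenitors as a percentage of kept barcodes (y axis, from 0) with all UMIs and with every barcode thinned to 5000 or 3000 UMIs (x axis); points are libraries and bars are exact Clopper-Pearson 95% intervals, which cover counting error only. At 3000 UMIs mutants sit at 8.99% and 7.43% and wild types at 9.38% and 7.07%.

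In the genes of progenitors, few calls separated the genotypes. The edgeR quasi-likelihood test on summed UMIs, with no term for the set, called 0 of 13483 genes at an adjusted p under 0.05, and 113 genes (0.838%) had an unadjusted p under 0.05. DESeq2 on these sums called 4 (0.0297%), and 21 (0.156%) with a term for the set. With the set as a term in edgeR, 47 genes were called (0.349%), 33 higher in mutants (0.245%) and 14 lower (0.104%), each in one direction in set A and set B. The log2 ratios of mutant to wild type below, with their SE and Benjamini-Hochberg adjusted p over all genes, come from that fit unless said otherwise, and the adjusted p without the set term was at least 0.903 for each gene named. In a simulation with 13320 genes, the fit with the set term made 14 false calls and the fit without it made 0. Those 14 came beside true calls with the set term, 93 for genes altered 2-fold and 100 for genes altered 4-fold. They therefore do not give the number of false calls among the 47 genes. That number was not tested, so single calls carry this limit. Over all 13483 genes the difference between genotypes correlated at only 0.0936 between set A and set B.

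The genes called higher on many progenitors included 2 enzymes of serine synthesis. Psat1, phosphoserine aminotransferase (chr19:15904678-15947337), had 8.22 and 9.62 CPM in mutants, against 2.20 and 3.64 CPM in wild types. Both mutants lay above both wild types, as for 3.89% of all genes tested. The UMIs came from 188 and 178 cells in mutants, against 47 and 65 in wild types. The log2 ratio was 1.72 (SE 0.21, edgeR adjusted p = 9.56e-05), with 1.88 (set A) and 1.52 (set B) within sets, where CPM are first scaled by the TMM factors. Phgdh, the enzyme that opens serine synthesis (chr3:98313170-98339990), had 4.2 and 5.24 CPM in mutants, against 1.68 and 1.69 CPM in wild types, again without overlap. Its log2 ratio was 1.55 (SE 0.26, edgeR adjusted p = 0.00335). Both genes were called in each of the 7 edgeR fits with the set term under different limits on barcodes. DESeq2 with the set term called Psat1 (adjusted p = 0.00118) but not Phgdh (adjusted p = 0.323).

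The stress response regulators Atf5, Nupr1 and Gdf15 were called with them. Atf5, a leucine zipper transcription factor, had 19.8 and 9.70 CPM in mutants, against 10.3 and 2.15 CPM in wild types. Genotypes overlapped across sets, and within each set the mutant was higher (log2 ratio 1.5, SE 0.24, edgeR adjusted p = 0.00277). Nupr1, a small stress-induced nuclear protein, had 22.6 and 77.7 CPM in mutants, against 13.7 and 34.6 CPM in wild types. Here set B was the higher set, the genotypes overlapped, and the log2 ratio was 1.04 (SE 0.15, edgeR adjusted p = 0.000802). Without barcodes rich in another cell type Nupr1 was lower in all 4 libraries, with 5.41 and 9.67 CPM in mutants, against 2.70 and 3.98 CPM in wild types, and both mutants lay above both wild types. Paneth markers then still summed to 2589 and 5585 CPM in mutants, against 986 and 3932 CPM in wild types. The part of RNA from other cell types in the Nupr1 ratio was not tested. Gdf15, a secreted stress cytokine, was scarce, with 2.20 and 1.38 CPM in mutants, against 0.388 and 0.614 CPM in wild types, and lay higher in both mutants (log2 ratio 1.91, SE 0.41, edgeR adjusted p = 0.0434). Over the 7 edgeR fits with the set term and different limits on barcodes, Atf5 was called in 7 and Nupr1 and Gdf15 in 6 each, with highest adjusted p of 0.176 for Nupr1 and 0.161 for Gdf15. DESeq2 with the set term called Atf5 (adjusted p = 0.00851) and Nupr1 (adjusted p = 0.00123) but not Gdf15 (adjusted p = 1). In fits without the set term that leave out 1 library, Nupr1 was at -0.16 without mutant 2 and 2.12 without wild type 2, and Atf5 at 0.64 without wild type 2 and 2.76 without wild type 1.

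**Figure D3:**
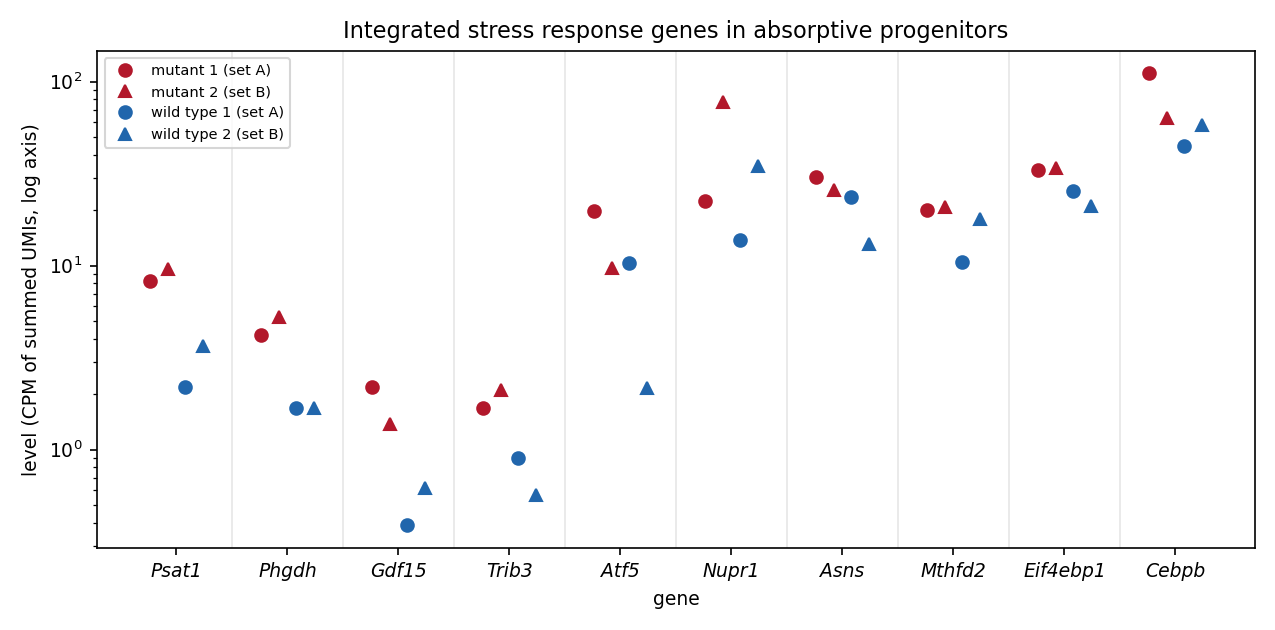
Level in progenitors in CPM (y axis, log scale) of 10 genes of the integrated stress response list (x axis); each point is 1 library, red for mutants and blue for wild types, circles for set A and triangles for set B. For Psat1 both mutants (8.22 and 9.62 CPM) lie above both wild types (2.20 and 3.64 CPM), while for Nupr1 and Atf5 the genotypes overlap across sets in all progenitors.

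The integrated stress response list, chosen with earlier results of these data known, is given here by its counts. Of its 32 tested members, 5 were called higher and 0 lower, beside 0.245% and 0.104% of all genes. The median log2 ratio was 0.51 (set A 0.34, set B 0.51), beside -0.01 over all genes tested. In 21 members the mutant was higher in both sets and in 3 it was lower in both, where all genes gave 24.2% and 26.7%, and 13 had both mutants above both wild types, beside 3.89% of all genes. Asns, asparagine synthetase, was short of the threshold with 30.3 and 25.9 CPM in mutants, against 23.5 and 13.2 CPM in wild types (log2 ratio 0.74, edgeR adjusted p = 0.0624). Mthfd2, the mitochondrial folate enzyme, had 20.0 and 20.7 CPM in mutants, against 10.4 and 18.0 CPM in wild types (0.65, edgeR adjusted p = 0.169). Eif4ebp1, a brake on translation, had a log2 ratio of 0.61 (edgeR adjusted p = 0.0853), and the leucine zipper factor Cebpb 0.80 (edgeR adjusted p = 0.0774, set A 1.34, set B 0.26). Atf4 itself, whose control is largely translational, had 95.4 and 58.3 CPM in mutants, against 96.2 and 77.9 CPM in wild types (log2 ratio -0.13, edgeR adjusted p = 0.99). With progenitors rich in another cell type left out, a choice made after seeing the data, 9 members were called higher and 0 lower. Of all genes in that fit 0.635% were called higher and 0.199% lower. Asns was among the 9 (edgeR adjusted p = 2.48e-05).

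Promoters of the list were searched for the C/EBP-ATF response element TGATGNAA on both strands, since it is the element that Atf4 dimers bind. It is in a window of 4.51% of the 27025 genes and of 10 of the 27 list genes that the table holds, among them Asns, Nupr1 and Trib3 but not Psat1, Phgdh, Atf5 or Gdf15. The windows of Asns and Nupr1 are shown because they differ in where the element lies, with the match in capitals.
Asns (chr6:7693160-7693459, minus strand): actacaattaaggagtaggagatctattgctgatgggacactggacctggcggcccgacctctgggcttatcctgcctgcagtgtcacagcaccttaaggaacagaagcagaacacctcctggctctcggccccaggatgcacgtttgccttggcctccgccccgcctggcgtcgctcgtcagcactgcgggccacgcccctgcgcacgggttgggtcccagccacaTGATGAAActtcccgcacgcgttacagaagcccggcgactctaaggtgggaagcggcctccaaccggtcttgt
Nupr1 (chr7:126625421-126625720, minus strand): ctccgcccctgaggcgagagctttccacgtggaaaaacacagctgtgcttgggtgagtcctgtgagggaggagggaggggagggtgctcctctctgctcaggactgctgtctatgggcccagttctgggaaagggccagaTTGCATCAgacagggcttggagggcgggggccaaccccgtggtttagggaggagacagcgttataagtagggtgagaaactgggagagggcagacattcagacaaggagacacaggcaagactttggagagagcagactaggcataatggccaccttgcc
In Asns the match TGATGAAA begins 23 bases before the start, and in Nupr1 the match TTGCATCA, on the opposite strand, begins 110 bases before it. No match in the other windows says only that these letters are not in these 300 bases.

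Psat1 was set against the neighbouring classes to see where the mutant level falls. Stem-type barcodes, whose sums include the Paneth cell RNA given above, had 9.41 and 9.84 CPM in mutants, against 8.05 and 8.23 CPM in wild types. Progenitors had 8.22 and 9.62 CPM in mutants, against 2.20 and 3.64 CPM in wild types. Mitotic barcodes were the highest class in every library, with 22.2 and 23.8 CPM in mutants, against 14.4 and 14.1 CPM in wild types. The rule limits mitotic genes by detection, which depends on depth, and its part in the Psat1 difference among progenitors was not tested. Enterocyte-type barcodes were lowest and had 1.03 and 1.59 CPM in mutants, against 0 and 1.22 CPM in wild types. Within progenitors Psat1 was highest in those with the lowest enterocyte sum, at 10.5 and 13.4 CPM in mutants, against 3.0 and 6.54 CPM in wild types. It was at 5.39 and 8.96 CPM in mutants, against 1.32 and 2.57 CPM in wild types, in the middle range. The test of whether the genotype ratio differs between progenitors and stem-type barcodes gave a log2 difference of 1.38 for Psat1 (edgeR adjusted p = 0.839) and 1.94 for Phgdh (edgeR adjusted p = 0.433). Across all genes this test called 0 of 14230 (527, or 3.7%, at an unadjusted p under 0.05) and 0 of 13140 against enterocyte-type barcodes (102, or 0.776%, at an unadjusted p under 0.05), so no gene is shown to respond in progenitors alone.

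Further genes were called higher outside that list. Hsd17b13, a lipid droplet enzyme (chr5:103955440-103977410), had 31.4 and 29.8 CPM in mutants, against 20.1 and 11.6 CPM in wild types, with no overlap (log2 ratio 1.07, SE 0.17, edgeR adjusted p = 0.003). Slc15a2, a peptide transporter (chr16:36750177-36784962), had 9.04 and 7.96 CPM in mutants, against 4.39 and 2.97 CPM in wild types, also without overlap (1.29, SE 0.21, edgeR adjusted p = 0.0029). Jaml, a junctional adhesion protein of epithelium and lymphocytes, had 74.8 and 54.8 CPM in mutants, against 43.2 and 40.3 CPM in wild types (0.70, SE 0.13, edgeR adjusted p = 0.0181). For these 3 genes both mutants lay above both wild types, as for 3.89% of all genes tested. Their UMIs came from 50 to 829 cells per library. DESeq2 with the set term called Hsd17b13 (adjusted p = 0.0144) but neither Slc15a2 (adjusted p = 0.131) nor Jaml (adjusted p = 0.098). Ddx60, an interferon-induced helicase, had 14.4 and 23.2 CPM in mutants, against 8.01 and 11.8 CPM in wild types (0.99, edgeR adjusted p = 0.0049).

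On the lower side, the calls that rested on many progenitors were Slc10a2, Slc13a1, Nos2 and Filip1l. Slc10a2, the apical bile acid transporter of the ileum (chr8:5083219-5105351), had 11.4 and 32.4 CPM in mutants, against 28.3 and 66.0 CPM in wild types. The mutant was lower in each set, while the genotypes overlapped across sets (log2 ratio -1.08, SE 0.14, edgeR adjusted p = 0.000274, and DESeq2 with the set term adjusted p = 0.000342). Slc13a1, a sodium sulfate cotransporter, had 40.2 and 78.5 CPM in mutants, against 77.2 and 119 CPM in wild types (-0.69, SE 0.15, edgeR adjusted p = 0.0452). Nos2, inducible nitric oxide synthase, had 10.2 and 12.7 CPM in mutants, against 17.0 and 25.4 CPM in wild types (-0.79, SE 0.16, edgeR adjusted p = 0.0313). For Nos2 both mutants lay below both wild types, as for 17.2% of all genes tested. Filip1l, a filamin-interacting gene, had 57.3 and 21 CPM in mutants, against 116 and 32.3 CPM in wild types, with set A the higher set (-0.75, SE 0.15, edgeR adjusted p = 0.0186). DESeq2 with the set term did not call Slc13a1 (adjusted p = 0.173), Nos2 (adjusted p = 0.537) or Filip1l (adjusted p = 0.133). These 3 were called in 6 of the 7 edgeR fits with different limits on barcodes, and Slc10a2 in 7. In fits without the set term, Slc10a2 was at -0.36 when mutant 1 was left out, -2.12 for mutant 2, -1.52 for wild type 1 and -0.14 for wild type 2, and Slc13a1 at -0.13 when mutant 1 was left out, -1.34 for mutant 2 and -0.16 for wild type 2. Filip1l was at 0.24 when wild type 1 was left out, -0.37 for mutant 2 and -1.58 for mutant 1, and Nos2 at -0.38 when wild type 2 was left out.

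Slc10a2 belongs to a list of distal small intestine genes, given here by its counts. Of 18 list members, 2 were called lower (Slc10a2 and the hormone gene Pyy, of which the second comes from few cells) and 0 higher, beside 0.104% and 0.245% of all genes. Without barcodes rich in another cell type, 1 was called lower and 1 higher, beside 0.199% and 0.635% of all genes. The median log2 ratio was -0.24 (set A -0.28, set B -0.21), and 11 members were lower in both sets and 2 higher in both, beside 26.7% and 24.2% of all genes. Fabp6 had a log2 ratio of -0.36. Slc51a, the other subunit of the bile acid exporter, had 249 and 316 CPM in mutants, against 355 and 390 CPM in wild types, a log2 ratio of -0.33. Nr1h4, the bile acid receptor FXR, had 193 and 180 CPM in mutants, against 229 and 290 CPM in wild types (-0.39, edgeR adjusted p = 0.592). For Slc51a and Nr1h4 both mutants lay below both wild types, as did 17.2% of all genes tested. Fgf15, a hormone gene that FXR switches on, lay the other way with 6.81 and 6.17 CPM in mutants, against 2.41 and 4.92 CPM in wild types (0.97, edgeR adjusted p = 0.115). Gata4, whose detection split these genes above, had 94.7 and 67.0 CPM in mutants, against 96.1 and 93.6 CPM in wild types. Without the set term the list median was 0.02 when mutant 1 was left out, 0.08 for wild type 2 and -0.64 for mutant 2. The stretch of intestine taken is not given in the sources used here, and its part in this result was not tested.

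**Figure D4:**
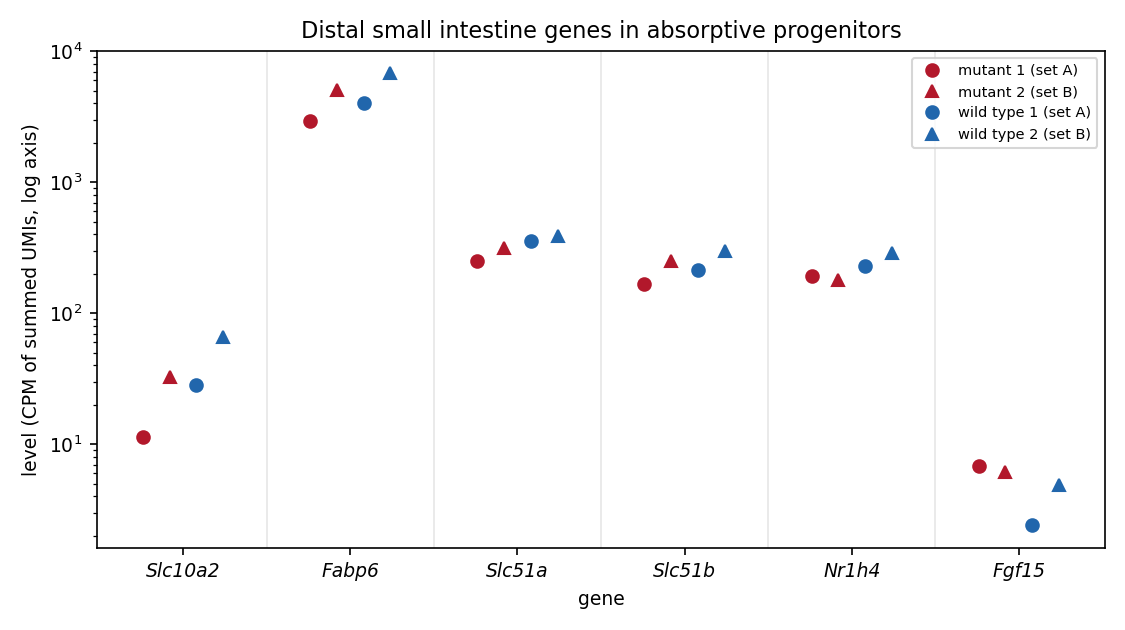
Level in progenitors in CPM (y axis, log scale) of 6 distal small intestine genes (x axis); each point is 1 library, red for mutants and blue for wild types, circles for set A and triangles for set B. Slc10a2 is lower in the mutant of each set (11.4 CPM against 28.3 in set A, 32.4 against 66.0 in set B), and Fgf15 is higher in both mutants.

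Mitotic genes had larger log2 ratios in set A than in set B. Of 24 genes of the G2 and M phase list, 7 are limited by the rule, so the list is read as a description of how far cells near that limit entered. Its median log2 ratio was 0.86 (set A) and 0.10 (set B), with 1 gene called higher and 0 lower, beside 0.245% and 0.104% of all genes. In 17 the mutant was higher in both sets and in 0 lower in both (24.2% and 26.7% of all genes), and 10 had both mutants above both wild types (3.89%). Without barcodes rich in another cell type 7 were called higher, beside 0.635% of all genes in that fit. Cdc20, an activator of the anaphase-promoting complex, which the rule does not use, had 44.0 and 18.7 CPM in mutants, against 14.2 and 13.3 CPM in wild types (log2 ratio 1.16, SE 0.19, edgeR adjusted p = 0.003, set A 1.65, set B 0.63). Wild type 1 is also the deepest library, and the part of depth in this result was not tested. The S phase list had 0 of 27 genes called, with a median of 0.20 for set A and -0.07 for set B.

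The 13 mRNAs of mitochondrial DNA gave 0 calls in progenitors, and their log2 ratios had a median of 0.05 (set A 0.21, set B -0.07). The cytochrome b mRNA mt-Cytb, for a complex III subunit, had 7028 and 6711 CPM in mutants, against 5819 and 5505 CPM in wild types (0.36, edgeR adjusted p = 0.86). mt-Nd1, a complex I subunit, had 5219 and 5372 CPM in mutants, against 4591 and 4540 CPM in wild types (0.29, edgeR adjusted p = 0.973). For both, mutants lay above wild types in each set, by less than the fit could call. Of the 13 mRNAs, 3 were higher in both sets and 3 lower in both (24.2% and 26.7% of all genes). Both mutants lay above both wild types in 2 and below them in 2 (3.89% and 17.2% of all genes). Mitochondrial UMIs took a median of 5.75% and 4.65% per progenitor in mutants, against 5.10% and 4.93% in wild types. Nuclear subunits of complex I had 0 of 37 genes called and a median of 0.04. Cytosolic ribosomal protein genes had 0 of 54 called, but 37 were higher in both sets and 0 lower in both (24.2% and 26.7% of all genes). Their median was 0.16, and in 12 both mutants lay above both wild types, beside 3.89% of all genes.

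**Figure D5:**
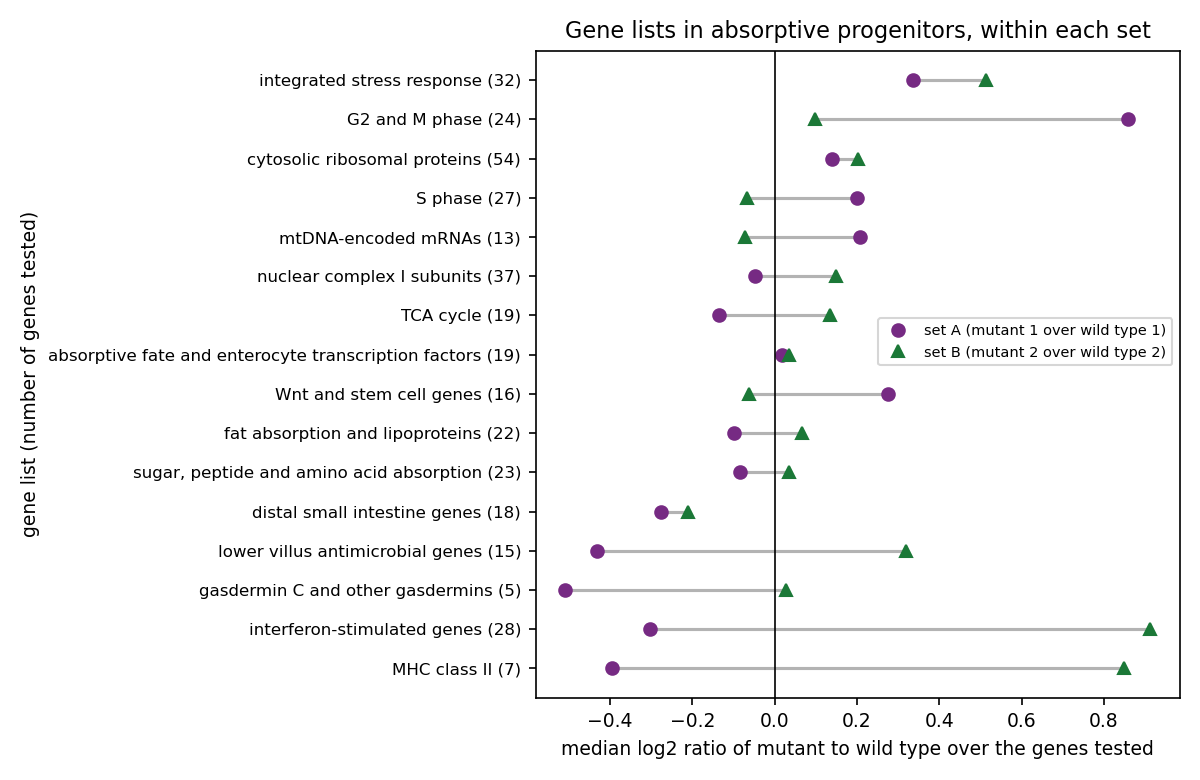
Median log2 ratio of mutant to wild type in progenitors (x axis) over the tested genes of 16 lists (y axis, number of genes in brackets), as purple circles for set A and green triangles for set B. The integrated stress response lies at 0.34 and 0.51, distal genes at -0.28 and -0.21, and interferon-stimulated and MHC class II genes lie on opposite sides of 0 in the 2 sets.

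The gasdermin C genes themselves were not called between genotypes. Gsdmc4 had a log2 ratio of -0.24 (SE 0.16, edgeR adjusted p = 0.973), within sets -0.55 (A) and 0.07 (B). The ratio within set B is above 0 although mutant 2 has the lower CPM, because the TMM factor is 0.891 for mutant 2 and 0.98 for wild type 2. Gsdmc2 had -0.15 (edgeR adjusted p = 0.992) and Gsdmc3 -0.26 (edgeR adjusted p = 0.969). In the fit without the set term and without wild type 1, Gsdmc4 was at 0.51. Of 5 tested gasdermins 0 were called. Since the rule requires these genes or others of its list to be detected, their levels in progenitors are bounded by it. Of 19 factors of absorptive fate, 0 were called, with a median of 0.04. Isx, a homeobox gene of the intestine, had 94.2 and 75.1 CPM in mutants, against 116 and 99.7 CPM in wild types (log2 ratio -0.27, edgeR adjusted p = 0.866).

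The medians of immune response lists went opposite ways in the sets. The 28 interferon-stimulated genes had median log2 ratios of -0.30 (set A) and 0.91 (set B), and 0 were called. Of these, 7 were higher in both sets and 1 was lower in both, beside 24.2% and 26.7% of all genes. Without barcodes rich in another cell type 1 was called higher, beside 0.635% of all genes. Ddx60, called higher above, is not among the 28. MHC class II genes (7 tested) followed, at -0.39 (set A) and 0.85 (set B). H2-Aa, an MHC class II chain, had 390 and 416 CPM in mutants, against 513 and 206 CPM in wild types, so the 2 wild types stood furthest apart. Neither list can be assigned to genotype with 1 library per genotype and set.

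Some calls moved with RNA of other cell types. Of the 47 genes called, 10 are alpha-defensin (Defa) symbols, and Paneth markers summed to 11941 and 69321 CPM in progenitors of mutants, against 5598 and 45261 CPM in those of wild types. All 12 Paneth markers were detected and higher in the mutant of both sets, beside 24.2% of all genes, and 5 were called higher, beside 0.245%. The median progenitor held 0.260% and 0.554% Paneth marker UMIs in mutants, against 0.0924% and 0.389% in wild types, and tuft-type barcodes held 0.325% and 0.619% in mutants, against 0.164% and 0.425% in wild types. The median progenitor lay below the median tuft-type barcode in each library. In 23 of the 47 genes 1 barcode gave 50% or more of the UMIs in at least 1 library. Hbb-bs, a haemoglobin gene, had 1115 and 9 UMIs in mutants, against 34 and 3 in wild types, and a single barcode of mutant 1 gave 98.2% of that library's. Cck, a hormone gene of enteroendocrine cells, had 12.7 and 7.63 CPM in mutants, against 45.4 and 42.2 CPM in wild types (log2 ratio -2.06), with 71.0% and 74.9% of the wild type UMIs from 1 barcode each.

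With progenitors rich in another cell type left out, chosen after seeing the data, 34 of the 47 genes were called again, 26 higher and 8 lower, among 109 calls in that fit, 83 higher and 26 lower (0.834%, 0.635% and 0.199% of genes tested). The shared genes are 72.3% of the first list and 31.2% of the second. A barcode was left out if its Paneth or goblet markers reached 2% of UMIs, or its enteroendocrine markers with Nts and Pyy 0.2%. It was also left out with 3 or more tuft markers, 2 or more T cell markers or 5 or more haemoglobin UMIs. Such barcodes were 9.12% and 8.59% of progenitors in mutants, against 5.49% and 10.1% in wild types. Psat1, Phgdh, Atf5, Nupr1, Gdf15, Hsd17b13, Slc15a2, Jaml, Cdc20, Ddx60, Slc10a2, Slc13a1, Nos2 and Filip1l were called in both fits, and Cck (edgeR adjusted p = 0.561) and Pyy (edgeR adjusted p = 0.87) were not called in the second. T cell markers summed to 14.1 and 30.6 CPM in mutants, against 4.0 and 1.8 CPM in wild types. Of those tested, 4 of 6 were called higher before and 0 of 2 after. T cell markers, Cck and Pyy are among the genes used to leave barcodes out, so the loss of these calls supports nothing further. Paneth markers went the other way, with 5 of 12 called higher before and 11 after, when their sums were 2589 and 5585 CPM in mutants, against 986 and 3932 CPM in wild types. Of 9 stroma and endothelium markers, 5 had 0 UMIs in progenitors of all 4 libraries.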

How the data were processed

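Libraries were made from sorted small intestinal epithelial cells with a 10x Chromium 3' kit, per the labels' protocols. The deposited files hold raw UMI counts per gene (32285 features) and barcode, made by the authors with Cell Ranger, version 7.0.0 for set A, version 7.1.0 for set B, per the file headers. The submitters' processing notes name mm10. How introns and strand were counted and how cells were called is not given in the sources used here. Counts were used as deposited, and no column outside the 4 libraries was used.

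The genes of the rule were chosen with values of these data in view, and the members and gene lists (44 in all) were chosen with earlier results of these data known. Progenitor UMIs were summed per library and tested by quasi-likelihood in edgeR 4.0.16 under R 4.3.3 (TMM factors, filterByExpr, Benjamini-Hochberg adjustment, calls at an adjusted p under 0.05). The main design has no set term and leaves 2 residual degrees of freedom per gene, and with the set as a replicate block 1 remains. The sets were treated as batches by inference from the Cell Ranger version and the word male in titles. Whether the libraries of a set were prepared together is not known from these. Over 13483 genes the set difference correlated at 0.607 between genotypes, and the genotype difference at 0.0936 between sets. The sums were also tested in DESeq2 1.42.0. Log2 ratios within a set used CPM scaled by the TMM factors (1.06 and 0.891 for mutants, 1.08 and 0.98 for wild types) and a pseudocount of 0.1 CPM. On simulated progenitor counts of 13320 genes, 0 of 100 genes with a 2-fold change and 46 of 100 with a 4-fold change were recovered without the set term, and 93 and 100 with it. Shares were compared in exact two-sided permutation tests, and barcodes were thinned to 3000 or 5000 UMIs by random draws. Doublets were kept in the main analysis. Barcodes with the highest Scrublet scores (scanpy 1.11.5) were marked up to an expected share of 0.8% per 1000 kept barcodes. That share was 9.20% and 6.92% of kept barcodes in mutants, against 3.63% and 6.55% in wild types, fixed by their number. Of progenitors 9.07% and 8.23% were marked in mutants, against 5.36% and 7.49% in wild types, which is not a measured difference in doublets.

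The rule for named genes took up to 10 called genes per direction that moved one way in both sets and had at least 10 CPM, filled from the design with the set term, plus the rule markers, all Gsdmc genes, the mtDNA-encoded mRNAs, up to 4 members of each list by p, and leading genes. Genes below 10 CPM (Psat1, Phgdh, Gdf15, Slc15a2), the other distal genes, Krt20 and Atf4 were named as members of a list or after their values were seen. Alternatives were other limits on markers, mitochondrial UMIs, doublets and the enterocyte sum, no TMM, no filter on low counts, and each library left out. Stem-type barcodes had 2 or more Lgr5 UMIs, mitotic ones at least 5 of the 7 mitotic genes, enterocyte-type ones an enterocyte sum of 200 or more per 10000 UMIs, and tuft-type ones at least 4 tuft markers. Gene positions are from GENCODE vM21 on mm10, with 313 of 314 genes placed.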

Additional observations from a re-analysis of the deposited data

Results flagged for a closer look

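A few lists moved in opposite directions in the 2 sets, and whether they differ between sets was not tested, since each set holds 1 library per genotype. The median log2 ratio of mutant to wild type in progenitors for interferon-stimulated genes was -0.30 (set A) and 0.91 (set B). For MHC class II genes the values were -0.39 (set A) and 0.85 (set B). For the cycling markers, whose levels the rule limits, they were 0.99 (set A) and -0.09 (set B). Wild type 1 had the deepest progenitors (median 29825 UMIs, against 11224 to 14997 in the other libraries), and the part of depth in these differences was not tested.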

How the results depend on the processing

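With the set as a replicate block in edgeR, 47 genes were called against 0 without it, with the pairing of libraries by set resting on Cell Ranger version and titles and not on replicate numbers. DESeq2 called 4 genes without the block and 21 with it, of which 18 are among the 47. With no filter on low counts and no block, 50 genes were called. Other limits with the block gave 109 calls without barcodes rich in another cell type, 79 with at least 5 markers, 23 with at least 3, 133 under 15% mitochondrial UMIs, 74 without doublets and 139 with an enterocyte sum under 100, where joining these limits to the block was chosen after seeing the data. Members of the integrated stress response list called in the same order of settings were 5 with the block, 3 with DESeq2 and the block, 4 with no filter, 9 without barcodes rich in another cell type, 8 with at least 5 markers, 3 with at least 3, 10 under 15%, 8 without doublets and 10 under the enterocyte sum of 100. For the G2 and M phase list they were 1, 1, 2, 7, 2 and then 7 under 15%, 5 without doublets and 6 under the enterocyte sum of 100. For distal genes they were 2, 1, 3, 2, 1, 1, 3, 3 and 3 in the order of the stress list, counting both directions. The 2 without barcodes rich in another cell type were 1 higher and 1 lower. The distal median of -0.27 without the block was -0.37 with no TMM and -0.15 with at least 3 markers, and -0.19 with at least 3 markers and the block. The ribosomal median of 0.16 was 0.08 with no TMM. The log2 ratio of Hbb-bs turned to -0.29 with at least 5 markers and to -0.19 there with the block. With no filter, the tests of progenitors against stem-type and enterocyte-type barcodes called 134 and 7 genes. The difference in share turned to -0.0171 points at 3000 UMIs.

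Leaving out 1 library at a time, with no block, gave 0 to 4 genes called, stress list medians of 0.34 to 0.57, G2 and M medians of 0.25 to 0.86, distal medians of -0.64 to 0.0764 with 0 to 1 called, ribosomal medians of 0.0793 to 0.23, mtDNA mRNA medians of -0.04 to 0.20, gasdermin medians of -0.70 to 0.50 and interferon medians of -0.19 to 0.75. The 2 tests between classes gave 0 to 2 and 0 to 6 calls, and the share difference 0.0932 to 3.84 points. Ratios that crossed 0 were Nupr1 (-0.16 to 2.12), Filip1l (-1.58 to 0.24), Hbb-bs (-0.92 to 6.94), Lyz1 (-0.38 to 2.80), Defa34 (-0.31 to 3.59), Gsdmc4 (-0.86 to 0.51), Gsdmc2 (-0.82 to 0.67), Gsdmc3 (-0.83 to 0.49) and Mgat4c (-1.0 to 0.18). A library left out together with the block leaves no residual degrees of freedom, so that design was not run. The lone library of a genotype is assumed to vary like the pair of the other. The cause of these changes was not tested. Gdf15 was detected in 9 to 51 progenitors per library.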
